A study of Mus musculus with 7 samples.

Results

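The genes described here encode the proteins that coat lipid droplets and the enzymes that empty them. They are 10 of the 53801 genes in the count tables and were found by matching symbols to Ensembl gene IDs with the version ignored: the perilipins Plin1, Plin2, Plin3 and Plin4, the droplet fusion protein gene Cidec, the lipase genes Pnpla2, Lipe and Mgll, the lipase coactivator gene Abhd5 and the droplet hydrolase gene Ldah. Ldah was chosen by its measured values, since its level in treated relative to control mice was among the lowest of all genes, and its own difference is given as a description, with no test. RNA was measured in bone marrow mesenchymal stromal cells sorted from the limb bones of male C57BL/6 mice, 8 weeks old when treatment began, at 7000 cells per library. The FAPi group comprised 4 mice given 500 µg/kg of a compound that inhibits FAP (fibroblast activation protein, a cell-surface serine protease), and the DPBS group, 3 mice, received the buffer vehicle alone. Both were injected into the peritoneum every day for 35 days. The compound is not named in the sources used here, and both groups are otherwise unmodified mice.

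A lipid droplet is a core of triglyceride and sterol ester under a single phospholipid layer. Perilipins sit on that layer and control access of lipases. Plin1 and Plin4 are typical of fat cells, Plin2 is found on droplets of many cell types, and Plin3 is a soluble protein that moves onto new droplets. Triglyceride is broken down in sequence by the products of Pnpla2 (adipose triglyceride lipase, helped by Abhd5 and held back by G0s2), Lipe (hormone-sensitive lipase) and Mgll (monoglyceride lipase). Ldah encodes a hydrolase-fold protein of the droplet surface whose substrate is debated. Marrow stroma contains Adipoq-expressing cells that carry an adipocyte-like program and can become marrow fat cells.

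The sort and its RNA set the frame for these values. Libraries held 7492570 to 10569690 gene counts, so that 3 counts, the floor used here, correspond to 0.284 to 0.400 CPM, the count relative to the library total. CPM values below are scaled by TMM factors, which correct for differences in composition, unless a value is said to be per length. The sort marker Pdgfra was present in every library and the summed level of 10 stromal markers spanned 28039 to 31021 CPM in DPBS and 28561 to 32228 CPM in FAPi libraries. Tek, the gene of the excluded surface protein Tie2, was at most 1.60 CPM. Transcripts of blood cells were present. The summed level of 10 neutrophil markers was 1827, 2839 and 664 CPM in DPBS replicates 1 to 3 and 197 to 621 CPM in FAPi libraries, without overlap, and that of 10 erythroid markers was 1889 to 15984 CPM and 1642 to 3341 CPM, with overlap. All 10 estimates of the neutrophil list were below 0 in FAPi, and 0 of the 10 passed the edgeR test, 7 of them at an unadjusted p under 0.05, where 3.69% of all genes were lower at that p. Of the erythroid list all 10 were also below 0, 0 passed and 6 were at an unadjusted p under 0.05, with a median log2 difference of -1.37. All 10 markers of both lists had counts in at least 1 library, and none was at 0 throughout. The 9 macrophage markers summed to 162.4 to 370 CPM in DPBS and 104 to 161.6 CPM in FAPi libraries, a narrow separation. Lyz2 made up most of each sum, and no other gene of that list exceeded 13.8 CPM (C1qa in FAPi replicate 4). The 7 endothelial markers summed to 22.8 to 69.5 CPM and 24.8 to 366.7 CPM. The top of that range is FAPi replicate 1, where Kdr alone was at 340.3 CPM, and the next FAPi library summed to 57.6 CPM. The 7 B cell markers summed to 610 to 969 CPM and 731 to 1028 CPM, mostly through Ebf1 (587 to 954 CPM over the 7 libraries), a gene that marrow stroma also expresses. The highest of the other 6 was Cd79a in DPBS replicate 2, at 82.2 CPM.

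The 250 bases before the annotated starts of 4 of these genes are shown because they represent the range of behaviour in the data. Ldah and Mgll had groups that did not overlap, Plin2 is a coat gene present in every library, and Cidec is an adipocyte droplet gene that was almost silent. Sequences are from RefSeq, build GRCm38.p6, written 5′ to 3′ on the strand of the gene. Capitals mark matches on either strand to 6 motifs: the nuclear receptor motif AGGTCA, the PPAR element (a direct repeat of that motif with 1 base between), the C/EBP motif TTNNGNAA, the cAMP response element TGACGTCA, the E-box CACGTG and the TATA box TATAAA. The PPAR element contains the nuclear receptor motif, and only exact copies were counted.
Ldah, chr12:8207876-8208125, plus strand: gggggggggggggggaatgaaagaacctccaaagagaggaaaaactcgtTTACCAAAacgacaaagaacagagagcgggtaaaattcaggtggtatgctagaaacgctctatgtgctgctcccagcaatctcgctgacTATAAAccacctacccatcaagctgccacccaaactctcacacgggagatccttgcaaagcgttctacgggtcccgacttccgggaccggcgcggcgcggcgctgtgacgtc
Mgll, chr6:88724162-88724411, plus strand: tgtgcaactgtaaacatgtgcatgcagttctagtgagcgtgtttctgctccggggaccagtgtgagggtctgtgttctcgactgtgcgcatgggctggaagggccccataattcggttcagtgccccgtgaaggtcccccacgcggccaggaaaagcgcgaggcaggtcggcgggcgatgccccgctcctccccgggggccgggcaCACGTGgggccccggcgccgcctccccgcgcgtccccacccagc
Plin2, chr4:86670060-86670309, minus strand: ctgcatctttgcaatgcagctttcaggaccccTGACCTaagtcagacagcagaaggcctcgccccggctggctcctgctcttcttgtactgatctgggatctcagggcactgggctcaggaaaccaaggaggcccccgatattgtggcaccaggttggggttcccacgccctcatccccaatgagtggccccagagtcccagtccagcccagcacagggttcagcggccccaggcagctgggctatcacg
Cidec, chr6:113435761-113436010, minus strand: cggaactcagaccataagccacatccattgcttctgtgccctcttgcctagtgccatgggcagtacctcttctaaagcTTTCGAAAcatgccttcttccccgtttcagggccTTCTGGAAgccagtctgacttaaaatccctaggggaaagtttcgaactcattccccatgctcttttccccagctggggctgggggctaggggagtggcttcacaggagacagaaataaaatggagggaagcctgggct

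All 10 genes had at least 1 promoter window, 14 windows in all. The PPAR element was in none of them, and it was in 0.0335% of 32851 promoters of the same length. These, called all promoters below, leave out 1 chromosome, on which none of the 10 genes lies. The C/EBP motif was in windows of Ldah, Plin1 and Cidec, against 36.8% of all promoters, and the nuclear receptor motif in those of Plin2 and Abhd5, against 14.02%. The cAMP response element was found in the second Ldah window (chr12:8207943-8208192), where it spans the start that the shown window precedes, and in 1.55% of all promoters. The E-box was in windows of Mgll and Lipe, against 6.02%. The TATA box was in both windows of Ldah, which overlap and share the same copy, against 12.4%. The shares over all promoters count single windows. Ldah, Mgll, Cidec and Lipe have more than 1 window each and so more chances of a match. Such matches describe the sequence, and occupancy was not measured.

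Among the droplet genes, those of general cell types were expressed and those of fat cells were at or near 0. Levels of different genes are compared per length, as counts per kilobase of merged exons on the TPM scale. On that scale the means over the 7 libraries were 73.8 ± 71.3 (SD, n = 7) for Ldah, 46.6 ± 17.0 for Plin3, 31.01 ± 12.99 for Plin2, 20.1 ± 10.1 for Abhd5, 6.50 ± 5.84 for Mgll and 5.12 ± 4.44 for Pnpla2. They were 1.06 ± 2.47 for Cidec, 0.483 ± 0.590 for Lipe and 0.162 ± 0.369 for Plin1, and Plin4 was at 0. Over both groups together each gene in this order overlapped the next in its range, so neighbours are not separated in the pooled libraries. In DPBS libraries alone Ldah (98.6 to 211) lay above Plin3 (13.4 to 52.4). With the length of the longest transcript in place of merged exons, Plin2 (45.4) stood above Plin3 (38.1) and the order was otherwise the same.

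Plin4 had 0 counts in all 7 libraries, which allows up to 3 counts in each. Plin1 had 1, 16 and 0 counts in DPBS replicates 1 to 3 and 0, 1, 0 and 0 in FAPi replicates 1 to 4. Cidec had 0, 0 and 1 counts in DPBS and 1, 1, 1 and 30 counts in FAPi libraries. A single library therefore held nearly all counts of Plin1 (DPBS replicate 2) and of Cidec (FAPi replicate 4). These 3 genes did not pass the low-count filter and were not tested. In the same libraries Adipoq, the adiponectin gene, stood at 2869 ± 587 on the per-length scale (SD, n = 7), rank 33 among all genes, and Lpl, the lipoprotein lipase gene, at 282 ± 81.4. Among the 12 adipocyte markers Lep and Retn were at 0 in all libraries, and Cfd was near 0 (mean 0.306 CPM). Means over the 7 libraries were 146 CPM for Cebpa, 85.2 for Car3, 61.3 for Scd1 and 57.2 for Fabp4. They were 49.3 CPM for Cd36, 29.4 for Pparg and 5.20 for Slc2a4. The summed level of the list was 2846 to 3165 CPM in DPBS and 2000 to 3352 CPM in FAPi libraries. Outside the 10, the droplet genes Plin5, Cidea, Cideb and Fitm1 were also at 0 throughout.

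**Figure D1:**
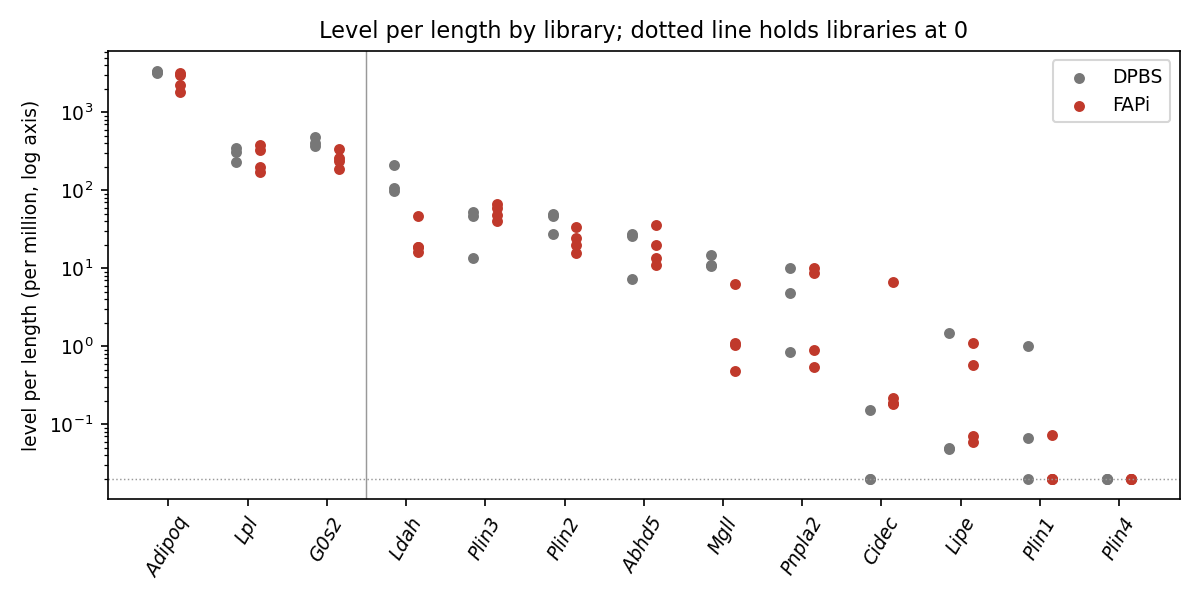
Level per length (counts per kilobase of merged exons, TPM scale, log axis) in each DPBS (grey, n = 3) and FAPi (red, n = 4) library, for 3 context genes left of the vertical line and the 10 droplet genes right of it. Libraries at 0 are drawn on the dotted line. Ldah spans 98.6 to 211 in DPBS and 16.3 to 47.1 in FAPi libraries, and Plin4 lies at 0.

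Ldah (ENSMUSG00000037669.15, chromosome 12, 8208107 to 8285759, plus strand, mm10) was the most abundant of the droplet genes in control mice. Its level was 447, 283 and 241 CPM in DPBS replicates 1 to 3 and 41.7, 45.0, 115 and 46.6 CPM in FAPi replicates 1 to 4. Every FAPi library lay below every DPBS library, and FAPi replicate 3 lay above the other FAPi libraries. The means were 324 ± 109 CPM (SD, n = 3) and 62.1 ± 35.3 CPM (SD, n = 4), a 5.22-fold ratio, and the fitted log2 difference, FAPi minus DPBS, was -2.38 ± 0.41 (SE). These are the values that placed Ldah here, where it ranked 2 by unadjusted p among 5060 genes with a lower estimate and a mean of at least 5 CPM, and 97 by size. In bulk RNA of sorted cells, fewer cells with the transcript and less transcript per cell cannot be told apart.

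The difference of Ldah was -2.08 without DPBS replicate 1 and -2.86 without FAPi replicate 3, the ends of the range over all fits tried. Summed neutrophil marker transcripts were also lower in every FAPi library than in any DPBS library, and their part in the difference cannot be told apart from that of the treatment. With the summed neutrophil and erythroid marker level as a covariate the difference was -2.10. That sum was mostly erythroid in every library (15984 CPM erythroid and 2839 CPM neutrophil in DPBS replicate 2). It therefore cannot separate the neutrophil part from the treatment. An antisense gene, Gm33037, lies within Ldah and had 0 counts in every library.

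The place of Ldah among the droplet genes differed with it. On the per-length scale it took 58.2%, 54.8% and 46.8% of the summed level of the 10 genes in DPBS replicates 1 to 3 and 17.1%, 11.2%, 35.4% and 13.4% in FAPi replicates 1 to 4. It was the highest of the 10 in all DPBS libraries and in FAPi replicate 3, and Plin3 was the highest in FAPi replicates 1, 2 and 4. This follows from the values that chose Ldah and is given as a description.

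The estimates for the expressed perilipins had opposite signs, and neither passed the test. Plin2 (chromosome 4, 86648386 to 86670060, minus strand) coats droplets in most cells and its protein is stabilised by stored lipid. Its level was 50.8, 59.1 and 32.1 CPM in DPBS and 16.8, 26.2, 28.7 and 40.8 CPM in FAPi replicates. FAPi replicate 4 lay above DPBS replicate 3, so the groups overlapped. Means of 47.4 ± 13.8 CPM (SD, n = 3) and 28.1 ± 9.85 CPM (SD, n = 4) gave a log2 difference of -0.75 ± 0.42 (adjusted p = 0.688, edgeR).

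Plin3 lies on chromosome 17 (56277476 to 56292873, minus strand), near Plin4 and Plin5. Plin4 and Plin5 are 1797 bases apart and the gap from Plin5 to Plin3 is 159879 bases, and in these cells Plin3 was the expressed gene of the 3. Its level was 57.8, 18.5 and 59.0 CPM in DPBS and 55.7, 94.9, 51.1 and 76.4 CPM in FAPi replicates. DPBS replicate 2 stood below the other 6 libraries, which ranged from 51.1 to 94.9 CPM. The means were 45.1 ± 23.0 CPM (SD, n = 3) and 69.5 ± 20.1 CPM (SD, n = 4), with a log2 difference of 0.62 ± 0.45 (adjusted p = 0.763, edgeR). It was 0.25 without DPBS replicate 2 and 0.098 with the summed blood marker level as a covariate.

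**Figure D2:**
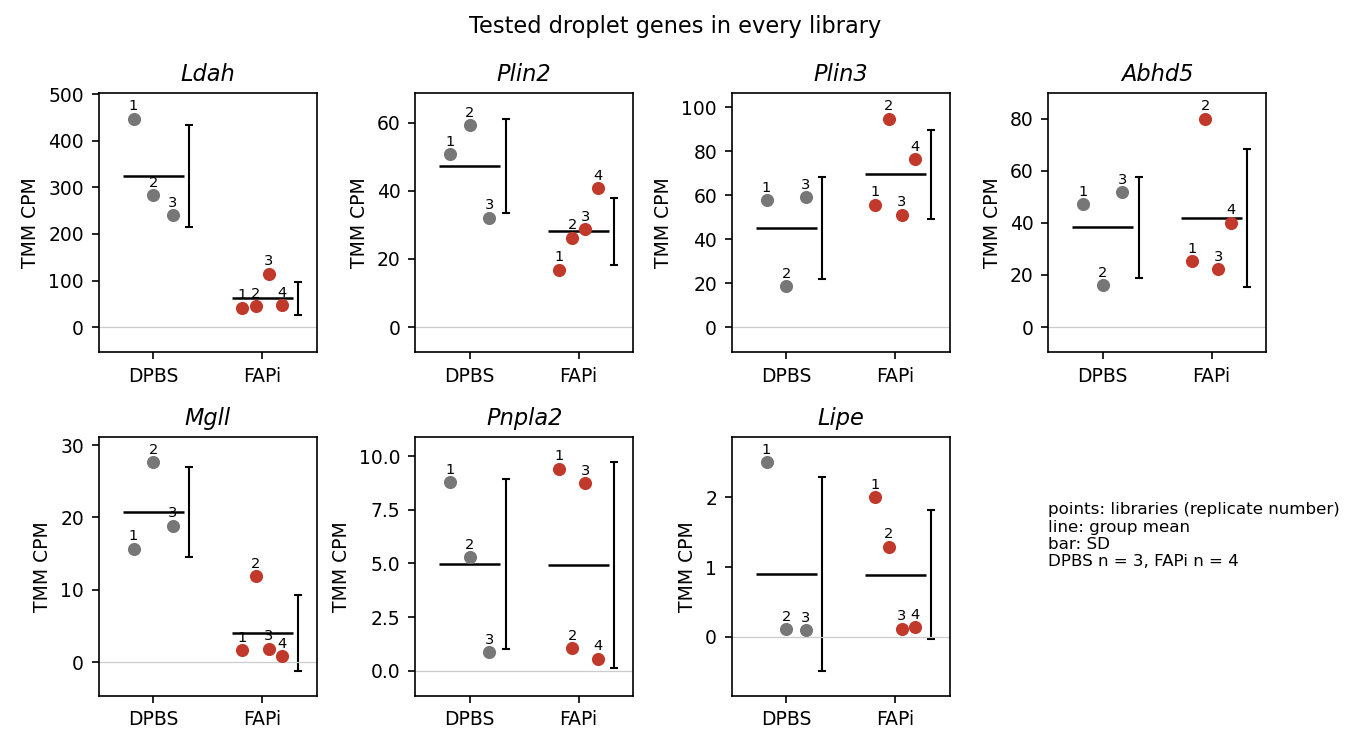
TMM-scaled CPM of the 7 tested droplet genes in every library (points, numbered by replicate), with group means (lines) and SD (bars) for DPBS (grey, n = 3) and FAPi (red, n = 4). For Ldah and Mgll every FAPi point lies below every DPBS point, and the other genes overlap.

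Among Pnpla2, Abhd5, Lipe and Mgll, only Mgll had groups that did not overlap, where 3.95% of all genes were lower in FAPi without overlap. Pnpla2 (chromosome 7, 141455198 to 141460743, plus strand), which encodes the enzyme of the initial step, was at 8.78, 5.28 and 0.848 CPM in DPBS and 9.41, 1.03, 8.74 and 0.558 CPM in FAPi replicates. High and low libraries occurred in both groups, with 4 to 98 counts behind these values. The means were 4.97 ± 3.97 CPM (SD, n = 3) and 4.94 ± 4.79 CPM (SD, n = 4), and the log2 difference of -0.01 ± 1.15 (adjusted p = 0.999, edgeR) has an error that covers more than a doubling either way.

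Abhd5 (chromosome 9, 122351608 to 122381524, plus strand), the coactivator of that lipase, was more abundant. It was at 47.2, 16.1 and 51.6 CPM in DPBS and 25.2, 80.0, 22.1 and 40.1 CPM in FAPi replicates. As for Plin3, DPBS replicate 2 was the lowest library and FAPi replicate 2 the highest. The log2 difference was 0.13 ± 0.56 (adjusted p = 0.983, edgeR), and its sign flipped when libraries were scaled by their totals alone (-0.12). An antisense gene, A730085K08Rik, shares 950 exon bases with Abhd5 and had 0 counts in every library.

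Lipe (chromosome 7, 25379527 to 25398710, minus strand) was scarce, at 28, 1 and 1 counts in DPBS and 16, 10, 1 and 1 counts in FAPi replicates. Counts of 10 or more occurred in DPBS replicate 1 and FAPi replicates 1 and 2, and the other 4 libraries lay under the floor of 3 counts. The log2 difference was -0.03 ± 1.38 (adjusted p = 0.998, edgeR). Hormone-sensitive lipase transcripts were thus at the limit of detection in most libraries.

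Mgll (ENSMUSG00000033174.17, chromosome 6, 88724412 to 88828360, plus strand), the lipase of the final step, was lower in every FAPi library. It was at 15.7, 27.7 and 18.8 CPM in DPBS and 1.63, 11.9, 1.86 and 0.838 CPM in FAPi replicates, from 175 to 262 and from 6 to 92 counts. Every FAPi library lay below every DPBS library, and FAPi replicate 2 was the highest of its group. The means were 20.7 ± 6.22 CPM (SD, n = 3) and 4.06 ± 5.24 CPM (SD, n = 4), a 5.11-fold ratio. The log2 difference of -2.35 ± 0.88 did not pass the edgeR test over all genes (unadjusted p = 0.0217, adjusted p = 0.529).

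The size of the Mgll difference depended on FAPi replicate 2, without which it was -3.84 (adjusted p = 0.407). Gm44001, annotated inside Mgll on the same strand with no shared exon bases, had 447 counts in that library and 7 to 19 counts in the other 6, and its part in the Mgll value was not tested. With the blood marker covariate the difference of Mgll was -1.99 (adjusted p = 0.853, edgeR). That covariate was mostly erythroid, as stated for Ldah, and the part of blood cell transcripts in the Mgll difference was not tested.

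**Figure D3:**
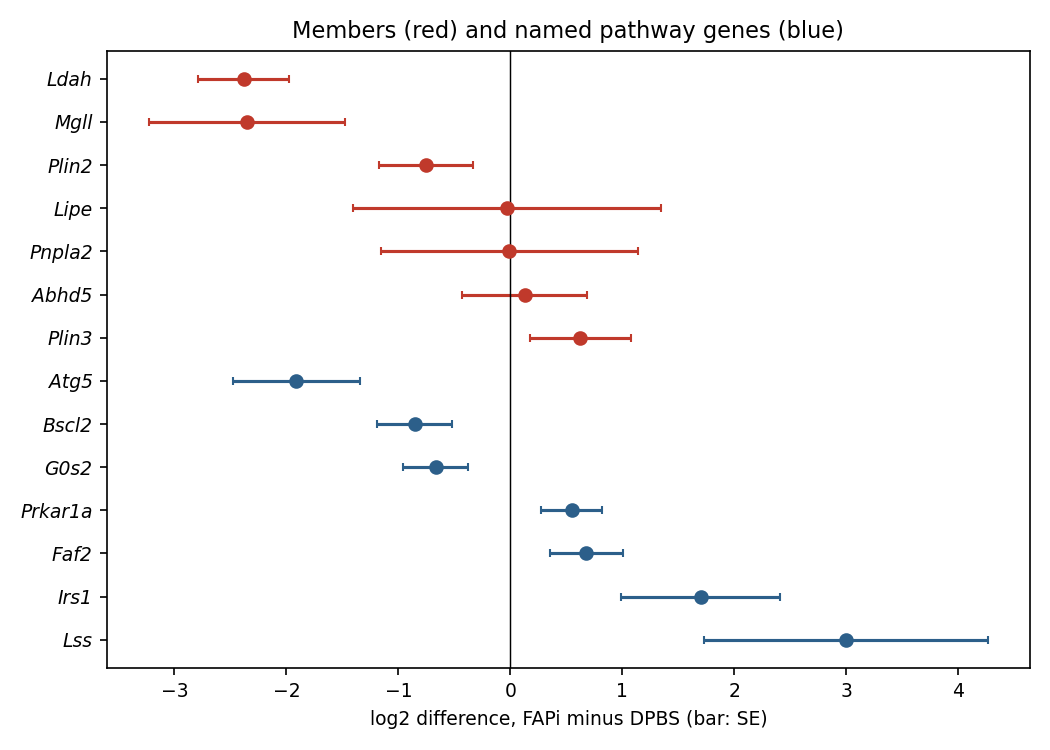
Log2 difference, FAPi minus DPBS, with its SE from the edgeR fit (4 against 3 libraries), for the 7 tested droplet genes (red) and the named genes of the wider pathway (blue). Ldah (-2.38) and Mgll (-2.35) lie farthest to the left, Plin2 lies at -0.75 and Plin3 at 0.62, and Lipe and Pnpla2 have the widest bars among the members.

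Of the 9 genes other than Ldah, 6 passed the low-count filter, and 0 of those 6 passed the edgeR threshold (adjusted p under 0.05), where 0.00% of the 12930 genes tested did. At an unadjusted p under 0.05 there was 1 of the 6 (Mgll), against 8.14% of all genes, with 3.69% lower in FAPi. DESeq2, limma voom with sample weights and limma on the deposited CPM also called 0 of the 6, and 130, 1 and 6 of the 12930 genes. Groups did not overlap for 1 of the 6, again Mgll, against 7.34% of all genes in either direction and 3.95% lower in FAPi. Of the 6 estimates 2 were above and 4 below 0, where 49.4% of all genes were below 0, with a median of -0.02, beside a median of 0.01 over all genes tested. The 6 passed a filter on their own counts and do not stand for all 10.

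The wider droplet machinery was described with 28 further genes of droplet formation and coating and 40 genes of lipolysis and its hormonal control, 2 of which (G0s2 and Hilpda) are on both lists. Of 21 tested droplet genes, 0 passed in either direction (edgeR), with 10 estimates above and 11 below 0 and a median log2 difference of -0.07. At an unadjusted p under 0.05 there were 1 higher and 2 lower. Of 33 tested lipolysis genes, 0 passed (edgeR), with 18 above and 15 below 0 and a median of 0.24, and 2 higher and 2 lower at an unadjusted p under 0.05. G0s2 was among the lower genes at that p in both lists. Over all 12930 genes tested, 8.14% were at that p (edgeR), with 576 genes higher and 477 (3.69%) lower in FAPi. DESeq2 and the limma fits also called 0 genes of the 2 lists. Of all 12930 genes DESeq2 called 130, limma voom 1 and limma on the deposited CPM 6. Counts were 0 in all libraries for 6 droplet genes, including the liver droplet enzyme gene Hsd17b13, and for 4 lipolysis genes, among them Pnpla3 and the beta-1 adrenergic receptor gene Adrb1.

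G0s2, whose product inhibits the lipase encoded by Pnpla2, was far more abundant than its target, at 325 ± 104 against 5.12 ± 4.44 on the per-length scale (SD, n = 7). Its level was 124, 127 and 107 CPM in DPBS and 63.3, 61.1, 76.5 and 99.4 CPM in FAPi replicates. The groups did not overlap, where 3.95% of all genes were lower in FAPi without overlap. The log2 difference was -0.67 ± 0.29 (adjusted p = 0.585, edgeR). G0s2 and the other genes named from both lists were chosen for the smallest unadjusted p, which favours separated groups. Bscl2, the gene of seipin, which shapes growing droplets at the endoplasmic reticulum, was at 84.5, 116 and 188 CPM in DPBS and 55.9 to 86.8 CPM in FAPi libraries. FAPi replicate 3 lay just above DPBS replicate 1. The log2 difference was -0.85 ± 0.34 (adjusted p = 0.553, edgeR) and -0.48 without DPBS replicate 3. Bscl2 shares 398 exon bases with Gng3 on the other strand, which had up to 547 counts in a library, and a further 239 with AC129217.1 on the same strand, so its value is uncertain.

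Faf2, which encodes a ubiquitin-pathway adaptor of the droplet surface, had groups that did not overlap in the other direction. It was at 53.2, 47.0 and 44.9 CPM in DPBS and 62.0, 60.7, 98.4 and 88.4 CPM in FAPi replicates, with a log2 difference of 0.68 ± 0.33 (adjusted p = 0.637, edgeR), where 3.39% of all genes were higher in FAPi without overlap. Lss, which encodes lanosterol synthase of the sterol pathway, was at 2.64 to 9.50 CPM in DPBS and at 129.8, 3.10, 22.8 and 3.07 CPM in FAPi replicates. Its log2 difference of 3.00 ± 1.27 (adjusted p = 0.580, edgeR) was 0.96 without FAPi replicate 1. A single library thus carried most of the Lss difference.

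In the lipolysis list, Atg5, an autophagy gene, was at 26.4, 19.2 and 90.9 CPM in DPBS and 7.96 to 14.9 CPM in FAPi libraries. Every FAPi library lay below the DPBS libraries, where 3.95% of all genes were lower in FAPi without overlap. The log2 difference was -1.91 ± 0.57 (adjusted p = 0.485, edgeR), and -0.92 without DPBS replicate 3. Irs1, an insulin receptor substrate gene, was at 4.03, 16.9 and 10.6 CPM in DPBS and 44.9, 62.8, 17.7 and 10.7 CPM in FAPi replicates, with overlap (log2 difference 1.70 ± 0.71, adjusted p = 0.574, edgeR). Prkar1a, which encodes a regulatory subunit of the cAMP-dependent kinase that drives lipolysis, was at 207 to 262 CPM and 245 to 469 CPM, also with overlap (log2 difference 0.55 ± 0.27, adjusted p = 0.645, edgeR, and 0.33 without FAPi replicate 2).

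Profiles were searched among 9578 other tested genes with a mean of at least 5 CPM, leaving out predicted and clone names. The profile over the 7 libraries closest to that of Ldah was that of Sult5a1, a sulfotransferase gene. The root mean square difference was 0.31 log2 units after centring each gene on its mean. Sult5a1 was at 18.3, 9.82 and 7.45 CPM in DPBS and 1.26, 1.55, 2.21 and 1.68 CPM in FAPi replicates. Pdzk1ip1 (0.53 log2 units) and Pcdhb9 (0.54), a protocadherin gene of a family with similar sequences, came next, and the median over the genes searched was 1.46. Of the droplet genes with counts in every library, Plin2 was the closest to Ldah (1.01) and Lipe the farthest (1.99).

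The chromosomal neighbours of Ldah were looked up after its values were seen. Hs1bp3, 27673 bases downstream on the same strand (chromosome 12, 8313432 to 8343824), was at 36.7, 27.7 and 11.03 CPM in DPBS and 9.16, 8.53, 2.80 and 2.09 CPM in FAPi replicates. The groups did not overlap, as for 3.95% of all genes lower in FAPi, though DPBS replicate 3 and FAPi replicate 1 were close. The log2 difference was -2.15 ± 0.69 (adjusted p = 0.490, edgeR). Rhob, 211902 bases downstream, was at 84.6 to 150.1 CPM in DPBS and 113.9 to 171 CPM in FAPi libraries, with a log2 difference of 0.44 ± 0.30 (adjusted p = 0.744, edgeR). On the other side the nearest genes with at least 1 CPM, Klhl29 and Gm48532, are 2832425 and 2972143 bases away. Klhl29 was at 4.86 to 9.76 CPM in DPBS and 14.9 to 19.4 CPM in FAPi libraries (log2 difference 1.11 ± 0.53, adjusted p = 0.629, edgeR). It was higher without overlap, as were 3.39% of all genes. Gm48532 overlapped, with a log2 difference of 1.14 ± 1.38 (adjusted p = 0.889, edgeR).

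**Figure D4:**
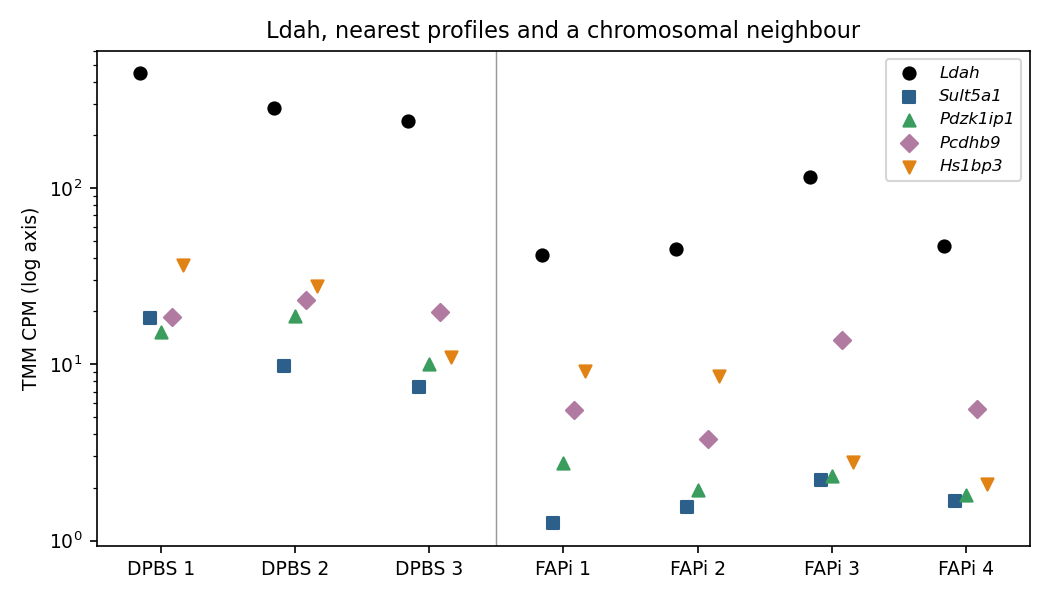
TMM-scaled CPM (log axis) in each of the 3 DPBS and 4 FAPi libraries for Ldah, the 3 most similar profiles of those searched and the neighbouring gene Hs1bp3. Ldah lies between 241 and 447 CPM in DPBS and between 41.7 and 115 CPM in FAPi libraries. Hs1bp3 is lower in every FAPi library than in any DPBS library, as are 3.95% of all genes. The 3 similar profiles are also lower without overlap, which follows from their choice by likeness to Ldah.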

How the data were processed

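RNA of 7 libraries (3 DPBS, 4 FAPi) was prepared by a modified Smart-seq2 protocol and sequenced as paired reads on an Illumina HiSeq, per the labels' protocols. The authors deposited a table of raw read counts per gene and a table of CPM for each library. Per the submitters' processing notes, STAR, HTSeq and mm10 were used. No source used here gives the annotation or strand setting, and 53620 of 53801 gene IDs matched GENCODE release M21. The deposited CPM equalled count over library total to within 4.55e-05 CPM, and 6 of the CPM tables repeat 2318 to 2340 lines.

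Counts were tested with edgeR 4.0.16 (quasi-likelihood, TMM, R 4.3.3) after filterByExpr with a minimum count of 10, FAPi against DPBS, with Benjamini-Hochberg adjustment over 12930 genes and a threshold of 0.05. The SE is the log2 difference divided by the square root of F. Profiles used log2 CPM with a prior count of 2. DESeq2 1.42.0, limma 3.58.1, other scalings, a blood marker covariate, a replicate block and the omission of each library were alternatives. The fit was tested on simulated data. Every pair of libraries differed beyond sampling noise (chi-square per degree of freedom at least 72.8). The floor of 3 counts covers counting error only, since molecules were not tagged. Named pathway genes were those with the smallest unadjusted p and a mean of at least 5 CPM in each list. The members and lists were chosen with earlier results of these data known. No column of per-sample values was left unmapped.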

Additional observations from a re-analysis of the deposited data

Results flagged for a closer look

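For 4 of 15 values compared within the FAPi group, 1 library lay far above the other 3 on the linear CPM scale. The cut marks about 1 in 20, or 0.75 of 15, only for normally distributed values, which was not checked. Ldah and Lss were also chosen by their values in these data, so the 4 are not read against that rate. The DPBS group, with 3 libraries, was too small for a comparison within the group. Ldah was at 115 CPM in FAPi replicate 3 and at 41.7 to 46.6 CPM in the others. Mgll was at 11.9 CPM in FAPi replicate 2 and at 0.838 to 1.86 CPM in the others. Cidec was at 4.19 CPM in FAPi replicate 4 and at 0.116 to 0.129 CPM in the others, which is 30 counts against 1 count each. Lss was at 129.8 CPM in FAPi replicate 1 and at 3.07 to 22.8 CPM in the others. The 4 values came from 4 different libraries.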

How the results depend on the processing

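Of 12930 genes edgeR called 0, DESeq2 called 130 (412 genes had no adjusted p), limma voom 1, limma on deposited CPM 6 with a pseudocount of 1 and 6 with 0.1, and an adjusted p under 0.1 gave 1. With no low-count filter edgeR called 6 of 20545 genes. Leaving out each library gave 0 to 3 calls of 12563 to 13737 genes, with 3 without DPBS replicate 3. The members other than Ldah had 0 calls under each alternative in which they were tested, and so had the pathway lists, for which the 0.1 threshold was not counted. The sign of the log2 difference was unstable for 3 genes near 0. Lipe was 0.023 with DESeq2, 0.016 with voom and 0.016 with RLE factors, 0.26 on CPM with a pseudocount of 0.1, and 1.31 with the blood covariate. Pnpla2 was 0.017 with DESeq2 and RLE factors and 1.77 with the blood covariate. Abhd5 was -0.029 with voom, -0.069 and -0.067 on CPM with pseudocounts of 1 and 0.1, -0.12 with library totals and -0.39 with the blood covariate. With single libraries left out, Lipe spanned -0.55 to 0.34 (it failed the filter and was not tested without DPBS replicate 1, FAPi replicate 1 or FAPi replicate 2, which hold most of its counts), Pnpla2 -0.52 to 0.68 and Abhd5 -0.41 to 0.41. The cause was not tested. With the replicate number as a block there were 0 calls, and Lipe was 1.001, Pnpla2 0.30 and Abhd5 -0.041. Same-numbered libraries did not deviate together (correlations -0.01, -0.02 and -0.05), so no pairing by number was detected. Whether they were handled together was not tested. Library totals and CPM shifted the median of all genes to -0.16, -0.17 and -0.18. Lipe, Plin1, Cidec and Plin4 had 3 counts or fewer in at least 4 libraries.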
